A study of Mus musculus with 4 samples.

Results

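The genes described are 10 transcription factors and partners that decide between myeloid and erythroid fates in blood formation: Gata1, Klf1, Zfpm1, Gfi1b, Gata2, Runx1, Spi1, Cebpa, Cebpe and Gfi1. They were taken by symbol from a table of 55399 genes, and all 10 were present and passed the filter on low counts. Bulk RNA-seq had been run on mouse bone marrow cells labelled Lsk, the usual short name for marrow cells without lineage markers but with Sca-1 and Kit on their surface, among them stem cells and multipotent progenitors. There were 2 libraries labelled Ppm1bCKO, a conditional knockout of the phosphatase gene Ppm1b, and 2 labelled Ppm1bfl/fl, with the floxed allele. The Cre line, the age of the mice, and whether each library came from 1 mouse or a pool are not given in the sources used here. P-values therefore measure only the spread between these libraries, which may be technical.

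These proteins form a network of mutual support and opposition. Gata1, with its cofactor Fog-1 (encoded by Zfpm1) and with Klf1, drives erythroid genes, while Spi1 (PU.1) and Cebpa drive granulocyte and monocyte genes, and Gata1 and Spi1 restrain each other's activity. Gata2 and Runx1 act earlier, in stem and progenitor cells, Gata2 also acts in mast cells, and Gata1 replaces Gata2 at shared sites as erythroid cells mature. Gfi1 and Gfi1b are related zinc-finger repressors, Gfi1 mainly in stem cells, granulocytes and lymphoid cells and Gfi1b mainly in erythroid cells and megakaryocytes. Cebpe acts late, in maturing neutrophils and eosinophils.

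Total counts ran from 22393973 to 30045382 per library. Ppm1b itself stood at 84.3 and 121 CPM (the share of a library's counts, scaled between libraries by TMM) in libraries labelled Ppm1bCKO, against 80.8 and 82.5 CPM in Ppm1bfl/fl libraries, so its level did not check the labels, and a sum over all exons need not show a deleted exon. The second Ppm1bCKO library held 2 counts of 4 Y-linked genes, against 5870 to 6396 in the other libraries, so the sex of the mouse and the identity of that library cannot be told apart. The Lsk surface genes were present, with Kit at 121 to 228 CPM and Ly6a, which encodes Sca-1, at 17.7 to 22.2 CPM. Transcripts of maturing cells were more abundant, with the haemoglobin gene Hbb-bs at 2783 to 7038 CPM and the myeloid granule gene Mpo at 3248 to 3976 CPM. The values below describe all the RNA collected, and in such bulk samples fewer cells of a type and less RNA per cell cannot be told apart.

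Promoter sequences are shown for the 4 erythroid members, since Gata1 and Klf1 had nearly the same profile over the libraries while Zfpm1 and Gfi1b departed from it. RefSeq windows on GRCm38.p6, from 250 bases before to 50 bases after a start site, were found for 8 of the 10 genes, in 11 windows. Spi1 and Cebpe had no entry. Each line runs 5′ to 3′ on the gene's strand, with capitals marking the GATA motif (AGATAA with its variant AGATAG, and TGATAA with its variant TGATAG) and the CACCC-type motif read by Klf-family factors (CCNCNCCC), on either strand. The windows are chrX:7967861-7968160 (minus strand) for Gata1, chr8:84901732-84902031 (plus strand) for Klf1, chr8:122281891-122282190 (plus strand) for Zfpm1 and chr2:28621933-28622232 (minus strand) for Gfi1b.
Gata1: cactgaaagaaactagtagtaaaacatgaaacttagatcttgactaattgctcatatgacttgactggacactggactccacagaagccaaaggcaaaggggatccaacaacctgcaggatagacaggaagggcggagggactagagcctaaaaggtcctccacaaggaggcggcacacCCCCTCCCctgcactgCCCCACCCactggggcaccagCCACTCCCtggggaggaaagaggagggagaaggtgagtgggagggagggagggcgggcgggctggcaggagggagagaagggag
Klf1: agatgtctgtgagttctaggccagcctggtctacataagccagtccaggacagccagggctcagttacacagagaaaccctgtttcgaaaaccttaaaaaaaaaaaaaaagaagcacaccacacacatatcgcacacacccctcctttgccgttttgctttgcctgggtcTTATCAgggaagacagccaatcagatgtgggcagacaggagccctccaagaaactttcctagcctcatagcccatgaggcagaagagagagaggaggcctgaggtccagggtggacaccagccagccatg
Zfpm1: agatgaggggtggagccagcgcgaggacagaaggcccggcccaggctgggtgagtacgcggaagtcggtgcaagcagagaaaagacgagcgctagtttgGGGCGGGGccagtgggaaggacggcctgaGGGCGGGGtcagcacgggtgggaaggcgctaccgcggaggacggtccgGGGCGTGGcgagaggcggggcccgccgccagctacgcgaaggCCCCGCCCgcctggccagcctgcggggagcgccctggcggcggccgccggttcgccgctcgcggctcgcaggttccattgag
Gfi1b: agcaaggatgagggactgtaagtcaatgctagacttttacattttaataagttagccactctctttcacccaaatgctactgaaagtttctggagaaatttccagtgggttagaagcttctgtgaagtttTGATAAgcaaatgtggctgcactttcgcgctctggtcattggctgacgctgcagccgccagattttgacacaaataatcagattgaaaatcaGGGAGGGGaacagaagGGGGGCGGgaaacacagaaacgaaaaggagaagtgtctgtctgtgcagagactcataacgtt

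The Gata1 window held 3 CACCC-type matches and 0 GATA matches, and the Zfpm1 window held 4 and 0. The Klf1 window held 1 GATA match, which begins at position -80 from the start site on the opposite strand, and 0 CACCC-type matches. The Gfi1b window held 1 GATA match, beginning at position -120, and 2 CACCC-type matches. No GATA match overlapped a CACCC-type match in these 4 windows. The searched word CCNCNCCC also fits stretches without the letters CACCC, among them all matches marked in the Zfpm1 and Gfi1b windows. The letters CACCC, on one strand or the other, stood unmarked in the Klf1, Zfpm1 and Gfi1b windows. Counts of CACCC-type matches are therefore not counts of CACCC. Of all 32851 RefSeq windows of the same length, 29.8% held a GATA match and 49.5% a CACCC-type match, so a match in 1 window is common. Also searched on both strands were an ETS-type motif (GAGGAA, in 28.3% of all windows), a Runx-type motif (TGTGGT, in 16.8%) and a Gfi-type motif (AAATCA, in 14.0%), with 1 match each in these 4 windows, for Gata1, Klf1 and Gfi1b in that order. These matches describe letters and do not show binding.

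No lineage factor passed the test between the genotypes. Of 16393 genes tested with edgeR's quasi-likelihood test, 0.372% were called at an adjusted p under 0.05, and 0 of the 10 members were. DESeq2 and limma-voom also called 0 of the 10, where they called 1.20% and 0.311% of all genes. At an unadjusted p under 0.05 there was 1 member, Cebpe, against 6.44% of all genes. The members split evenly, with 5 higher and 5 lower in libraries labelled Ppm1bCKO and a median log2 fold change of -0.04, against 0.00 over all tested genes. The genotypes did not overlap for 4 of the 10 members, and this share is near the 41.1% of all tested genes that did not overlap. Of these 4, Cebpe was the higher one (background 20.6%), and Zfpm1, Gfi1b and Cebpa were the lower ones (background 20.6%).

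**Figure D1:**
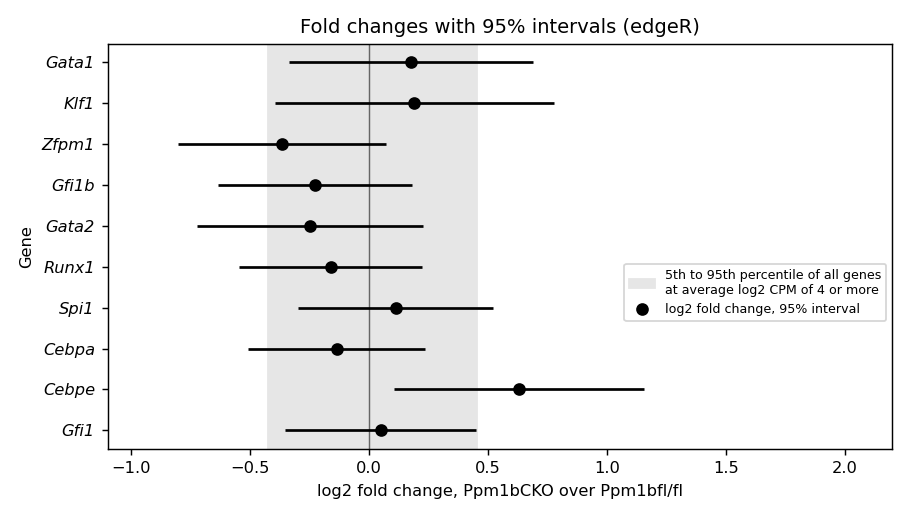
Points give the log2 fold change, Ppm1bCKO over Ppm1bfl/fl (horizontal axis), of each of the 10 genes (vertical axis), and lines the 95% interval from the edgeR fit with 2 libraries per genotype. The grey band spans the 5th to 95th percentile (-0.42 to 0.45) of the 8529 genes with an average log2 CPM of at least 4, and Cebpe, at 0.63, is the member outside it.

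The intervals bound what was measured. For 9 of the 10 members the 95% interval of the log2 fold change lay between -1 and 1, so a change past 2-fold either way fell outside it, and Cebpe, whose interval ran from 0.10 to 1.16, was the exception. The Ppm1bCKO libraries differed from each other by more than the log2 fold change for 8 of the 10 members, and the Ppm1bfl/fl libraries for 6. Single libraries vary more than the group means behind a fold change, so this comparison is rough. The median member differed by 0.30 on the log2 scale between the Ppm1bCKO libraries and by 0.26 between the Ppm1bfl/fl libraries, against a median absolute log2 fold change of 0.18. Over the 8529 genes at a comparable level those medians were 0.26, 0.11 and 0.18. Between the Ppm1bfl/fl libraries the members fell on both sides of the typical gene. The erythroid factors differed by 0.36 (Gfi1b) to 0.60 (Klf1), Gata2 by 0.42 and Runx1 by 0.15, all above it. The myeloid factors lay below it, at 0.029 (Cebpa) to 0.062 (Gfi1).

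Levels can be compared between genes only per length, and for this TPM values were computed from the counts and exonic lengths. TPM is a gene's counts per exonic length, as a share of the sum of such values in its library. TPM was not scaled by TMM, and its order across libraries can differ from that of CPM. In libraries labelled Ppm1bCKO, Gfi1b stood at 141 and 119 TPM but at 82.1 and 84.1 CPM. Averaged over the 4 libraries, Klf1 stood highest at 255 TPM, followed by Zfpm1 at 227 and Spi1 at 227 TPM. The ranges of these 3 overlapped. Spi1, at 221 to 237 TPM, lay above Gata1, at 126 to 182 TPM, in all 4 libraries. Gata1 and Gfi1b (119 to 178 TPM) overlapped in range, as did Cebpe (75.8 to 127 TPM) and Cebpa (76.8 to 92.1 TPM). Gata2 (42.5 to 76.3 TPM) lay below Cebpa in every library. Runx1 and Gfi1 stood lowest and overlapped, at 24.7 to 36.3 and 25.6 to 28.5 TPM. Transcripts of erythroid and of myeloid factors were both abundant in every library.

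**Figure D2:**
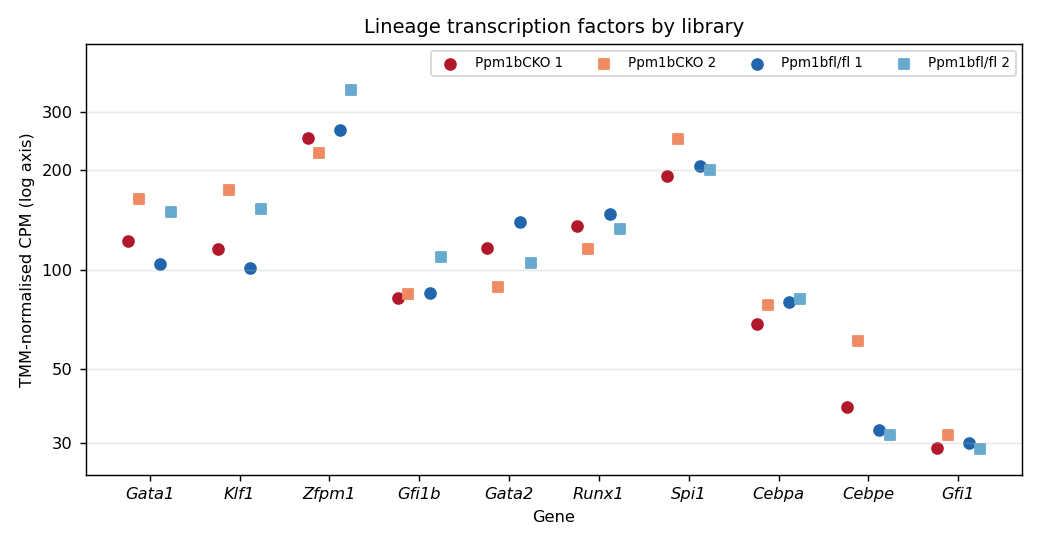
Each point is the TMM-normalised CPM (vertical log axis) of 1 of the 10 genes (horizontal axis) in 1 library. Libraries labelled Ppm1bCKO stand left of those labelled Ppm1bfl/fl, and heights may be compared within a gene only, since CPM is not divided by length; for Gata1 and Klf1 the genotypes interleave, whereas for Cebpe the second Ppm1bCKO library, at 61.0 CPM, stands above the other 3.

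Gata1 and Klf1, the erythroid activators, varied together and varied more within a genotype than between genotypes. Gata1 (ENSMUSG00000031162.14, chromosome X, mm10, 7959260 to 7978071) had 122 and 164 CPM in libraries labelled Ppm1bCKO, against 104 and 149 CPM in Ppm1bfl/fl libraries. The genotypes interleaved, with the second library of each the higher. Its log2 fold change was 0.18 ± 0.22 (standard error from the edgeR fit), with a 95% interval from -0.34 to 0.69 and an edgeR adjusted p of 0.815. Klf1 (ENSMUSG00000054191.9, chromosome 8, 84901928 to 84905295), which binds CACCC boxes in globin genes, stood at 115 and 174 CPM in libraries labelled Ppm1bCKO, against 101 and 152 CPM in Ppm1bfl/fl libraries. This is the order of Gata1, with a log2 change of 0.19 ± 0.26 (edgeR adjusted p = 0.824). Both fold changes turned negative when the second Ppm1bCKO library was left out (-0.05 for Gata1 and -0.14 for Klf1) and when the first Ppm1bfl/fl library was (-0.06 and -0.08).

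Zfpm1 and Gfi1b, which work beside Gata1, did not follow it in the second Ppm1bCKO library. Zfpm1 (ENSMUSG00000049577.15, chromosome 8, 122282141 to 122337251) stood at 250 and 226 CPM in libraries labelled Ppm1bCKO, against 263 and 349 CPM in Ppm1bfl/fl libraries. Both Ppm1bCKO libraries lay below both others, by a small margin for the nearest pair. The log2 fold change was -0.37 ± 0.19 (95% interval -0.80 to 0.07, edgeR adjusted p = 0.717), with -0.56 when the first Ppm1bfl/fl library was left out and -0.15 when the second was. Gfi1b (ENSMUSG00000026815.14, chromosome 2, 28609450 to 28621982) stood at 82.1 and 84.1 CPM in libraries labelled Ppm1bCKO, against 85.1 and 109 CPM in Ppm1bfl/fl libraries. Here 3 libraries were close together and the second Ppm1bfl/fl library stood above them. The log2 fold change of Gfi1b was -0.23 ± 0.18 (edgeR adjusted p = 0.737), and it was -0.04 when that library was left out.

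Genes that Gata1 and Klf1 switch on in red cells did not differ between the genotypes beyond the spread of the libraries. Of 22 tested erythroid targets, 0 passed in either direction (background 0.0610% higher and 0.311% lower), 12 had a positive log2 fold change, and the median was 0.05. For 0 of the 22 did the genotypes stand apart, against 41.1% of all genes. Summed, the targets made 15600 and 20646 CPM in libraries labelled Ppm1bCKO, against 11013 and 18811 CPM in Ppm1bfl/fl libraries, the order seen for Gata1 and Klf1. The globin genes lay on the positive side. Hbb-bs stood at 4476 and 7038 CPM in libraries labelled Ppm1bCKO, against 2783 and 5049 CPM in Ppm1bfl/fl libraries (log2 fold change 0.56 ± 0.34, edgeR adjusted p = 0.717). Hba-a1 and Hbb-bt, a globin alpha and a globin beta gene, had log2 fold changes of 0.59 ± 0.34 and 0.58 ± 0.31. Globin copies are nearly identical, and how reads were divided among them is uncertain. Sptb, which encodes the beta spectrin of the red cell skeleton, lay the other way at -0.51 ± 0.29, with 407 and 252 CPM in libraries labelled Ppm1bCKO, against 355 and 584 CPM in Ppm1bfl/fl libraries. The listed symbol Ahsp was not matched.

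Megakaryocyte targets of Gata1 varied most between the Ppm1bfl/fl libraries. Their summed level was 545 and 617 CPM in libraries labelled Ppm1bCKO, against 978 and 357 CPM in Ppm1bfl/fl libraries. Between the Ppm1bfl/fl libraries Gata1 ran the other way, at 104 and 149 CPM. Of 11 tested targets 0 passed, 10 had a negative log2 fold change, the median was -0.22, and 0 stood apart by genotype (background 41.1%). Vwf, which encodes von Willebrand factor, stood at 57.4 and 45.7 CPM in libraries labelled Ppm1bCKO, against 111 and 48.7 CPM in Ppm1bfl/fl libraries (log2 fold change -0.63 ± 0.35, edgeR adjusted p = 0.717). The list median was 0.56 without the first Ppm1bfl/fl library and -0.81 without the second. The platelet receptor gene Gp1bb, with 2, 0, 0 and 0 counts, was not tested.

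Among 15 other erythroid and megakaryocytic regulators, 0 passed and the median log2 fold change was -0.04. Tal1, the partner of Gata1 in a shared complex with Lmo2 and Ldb1, stood at 159 and 171 CPM in libraries labelled Ppm1bCKO, against 136 and 195 CPM in Ppm1bfl/fl libraries. Its log2 fold change was 0.00 ± 0.20. The smallest p values of the list belonged to Zbtb7a (-0.23 ± 0.16), Klf3 (-0.27 ± 0.19), Sox6 (-0.36 ± 0.26) and Foxo3 (-0.19 ± 0.18), with edgeR adjusted p from 0.723 to 0.765. Sox6 helps to silence embryonic globin, and Klf3 is a repressor that shares CACCC sites with Klf1.

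Gata2 and Runx1, the factors of early progenitors, were higher in the first library of each genotype. Gata2 (ENSMUSG00000015053.14, chromosome 6, 88193891 to 88207032) stood at 116 and 88.8 CPM in libraries labelled Ppm1bCKO, against 139 and 104 CPM in Ppm1bfl/fl libraries. The genotypes interleaved, and the order of the 4 libraries was the reverse of that of Gata1. The log2 fold change of Gata2 was -0.25 ± 0.21 (95% interval -0.72 to 0.23, edgeR adjusted p = 0.746). It ran from -0.46 without the first Ppm1bCKO library to -0.03 without the first Ppm1bfl/fl library. Runx1 (ENSMUSG00000022952.17, chromosome 16, 92601466 to 92826149) stood at 135 and 115 CPM in libraries labelled Ppm1bCKO, against 148 and 133 CPM in Ppm1bfl/fl libraries. These values overlapped narrowly, with a log2 change of -0.16 ± 0.17 (edgeR adjusted p = 0.776), which ran from -0.29 without the first Ppm1bCKO library to -0.05 without the second. Cbfb, which encodes the subunit that Runx1 needs to bind DNA well, had 151 and 162 CPM in libraries labelled Ppm1bCKO, against 142 and 128 CPM in Ppm1bfl/fl libraries (0.21 ± 0.16, edgeR adjusted p = 0.729). Of 5 Runx partners and relatives 0 passed, with Runx3 at -0.22 ± 0.18, Cbfa2t2 at -0.04 ± 0.17, and Runx1t1, at most 1.33 CPM in any library, at -1.03 ± 0.49.

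The 10 Lsk and stem cell markers, which share cells with Gata2 and Runx1, summed to 535 and 470 CPM in libraries labelled Ppm1bCKO, against 620 and 515 CPM in Ppm1bfl/fl libraries. That is the order of Gata2 and Runx1 as well, and its part in their levels was not tested. Kit, a known Gata2 target, had a log2 change of -0.46 ± 0.22 (edgeR adjusted p = 0.717). Of 6 tested mast cell and basophil markers, which also share Gata2, 0 passed and the median log2 fold change was -0.04. They summed to 1069 and 1001 CPM in libraries labelled Ppm1bCKO, against 1092 and 976 CPM in Ppm1bfl/fl libraries. The connective tissue mast cell genes Mcpt4 and Tpsb2 had at most 1 count in any library.

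**Figure D3:**
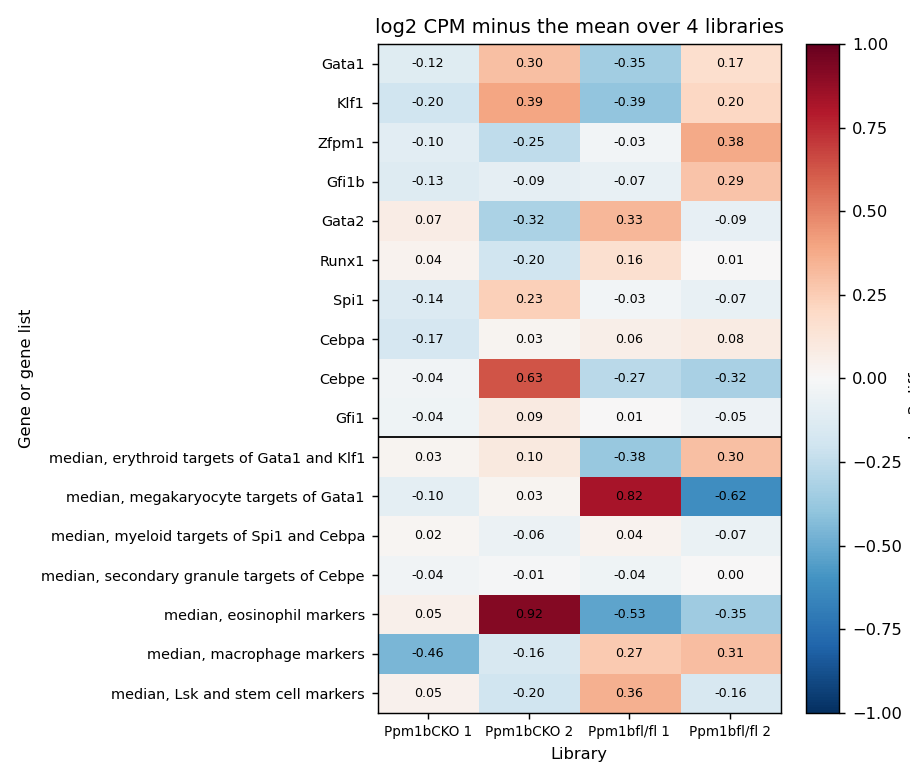
Each cell gives the log2 CPM of a gene in a library minus that gene's mean over the 4 libraries, and below the line the median of that difference over a gene list. Gata1 and Klf1 share a pattern (0.30 and 0.39 in the second Ppm1bCKO library, -0.35 and -0.39 in the first Ppm1bfl/fl library). Gata2 runs the other way. Cebpe is highest, at 0.63, in the second Ppm1bCKO library, where eosinophil markers are highest, at 0.92. The median of B cell markers, not drawn, is also highest there, at 1.16.

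Spi1, Cebpa and Gfi1, which drive granulocyte and monocyte development, had the smallest absolute log2 fold changes of the 10. Spi1 still differed by 0.37 on the log2 scale between the Ppm1bCKO libraries. Spi1 (ENSMUSG00000002111.8, chromosome 2, 91082390 to 91115756) stood at 191 and 247 CPM in libraries labelled Ppm1bCKO, against 206 and 200 CPM in Ppm1bfl/fl libraries. The Ppm1bCKO libraries lay on both sides of the others, and the log2 fold change was 0.11 ± 0.18 (95% interval -0.30 to 0.52, edgeR adjusted p = 0.853). Cebpa (ENSMUSG00000034957.10, chromosome 7, 35119293 to 35121928), which brings progenitors into the granulocyte-monocyte lineage, stood at 68.4 and 78.2 CPM in libraries labelled Ppm1bCKO, against 79.8 and 81.4 CPM in Ppm1bfl/fl libraries. It did not overlap, but the nearest libraries were 78.2 and 79.8 CPM, and the log2 fold change was -0.14 ± 0.16 (edgeR adjusted p = 0.802). It was -0.04 without the first Ppm1bCKO library and -0.24 without the second. Gfi1 (ENSMUSG00000029275.18, chromosome 5, 107716657 to 107726036) stood at 28.9 and 31.6 CPM in libraries labelled Ppm1bCKO, against 29.9 and 28.6 CPM in Ppm1bfl/fl libraries. It was the steadiest member, with a log2 change of 0.05 ± 0.18 (edgeR adjusted p = 0.941). Without the second Ppm1bCKO library the fold changes of Spi1 and Gfi1 turned negative, at -0.09 and -0.02.

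Cebpe had the largest difference of the 10, and it did not pass. Cebpe (ENSMUSG00000052435.7, chromosome 14, 54710360 to 54712174) stood at 38.5 and 61.0 CPM in libraries labelled Ppm1bCKO, against 32.7 and 31.6 CPM in Ppm1bfl/fl libraries. Both Ppm1bCKO libraries lay above both others, the second far more than the first. The log2 fold change was 0.63 ± 0.23 (95% interval 0.10 to 1.16), with an unadjusted p of 0.0242 and an adjusted p of 0.717 in edgeR. It was 0.92 when the second library alone represented the genotype, and 0.26 when the first did. That second library is the one with 2 Y-linked counts, so in the former comparison sex and genotype cannot be told apart.

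Eosinophil markers, like Cebpe, were highest in the second Ppm1bCKO library and next highest in the first, while the neutrophil granule targets of Cebpe had a median log2 fold change near 0. The 9 eosinophil markers summed to 4540 and 7963 CPM in libraries labelled Ppm1bCKO, against 3013 and 3324 CPM in Ppm1bfl/fl libraries. Their median log2 fold change was 1.05, and 8 of 9 were positive and stood apart by genotype (background 20.6% higher). Of the 9, edgeR called 0 (background 0.372%) and DESeq2 called 5 (background 1.20%). In edgeR 6 had an unadjusted p under 0.05 (background 6.44%). Prg2, which encodes the eosinophil major basic protein, stood at 2286 and 4200 CPM in libraries labelled Ppm1bCKO, against 1487 and 1484 CPM in Ppm1bfl/fl libraries (1.13 ± 0.29, edgeR adjusted p = 0.366). Ear2 and Ear6, eosinophil-associated ribonuclease genes of a family of near copies, had log2 fold changes of 1.20 ± 0.31 and 1.06 ± 0.28. The part of eosinophil transcripts in the level of Cebpe was not tested. Other marker lists were also highest in the second Ppm1bCKO library. There the median log2 difference from a gene's mean was 1.16 for B cell and 0.63 for plasmacytoid dendritic cell markers. It was 0.30 for T and NK cell markers and 0.92 for eosinophil markers.

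**Figure D4:**
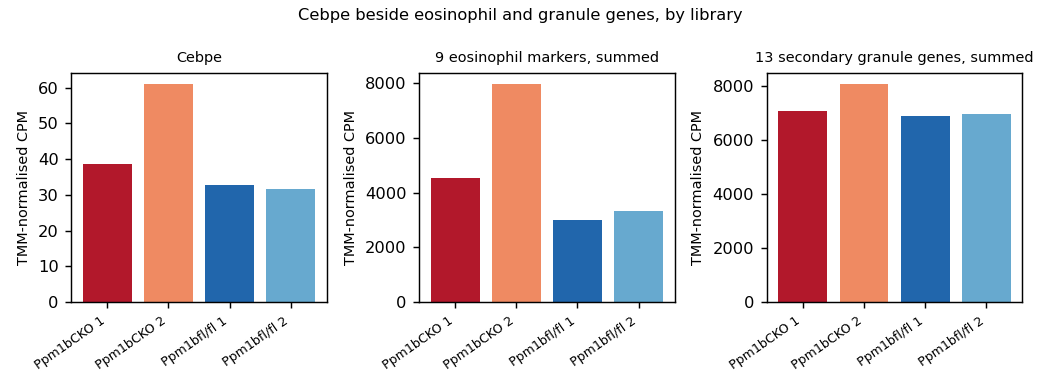
Bars give TMM-normalised CPM in each of the 4 libraries for Cebpe, for the sum of 9 eosinophil markers and for the sum of 13 genes listed as secondary granule targets. The second Ppm1bCKO library is highest in all 3 panels, at 61.0, 7963 and 8078 CPM, but the granule sums of the 4 libraries lie closer together than the other values.

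The 13 genes listed as secondary granule targets of Cebpe, S100a8, S100a9 and Lyz2 among them, were summed. They made 7094 and 8078 CPM in libraries labelled Ppm1bCKO, against 6910 and 6989 CPM in Ppm1bfl/fl libraries. Of the 13, 0 passed, 7 were positive and 6 negative, and the median log2 fold change was 0.01. Ltf, the lactoferrin gene, stood at 624 and 614 CPM in libraries labelled Ppm1bCKO, against 652 and 590 CPM in Ppm1bfl/fl libraries. The genes of this list with the smallest p were Cd177 (-0.28 ± 0.16), S100a9 (0.29 ± 0.20), Mmp9 (-0.24 ± 0.17) and Itgb2l (-0.27 ± 0.20), in both directions.

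Targets of Spi1 and Cebpa split between higher and lower. Of 17 tested, 0 passed, 8 were positive and 9 negative, and the median log2 fold change was 0.00. For 13 of them the genotypes stood apart, 6 higher and 7 lower, where 41.1% of all genes stood apart. Itgam, which encodes the CD11b integrin chain, stood at 67.1 and 86.8 CPM in libraries labelled Ppm1bCKO, against 55.8 and 52.9 CPM in Ppm1bfl/fl libraries (0.50 ± 0.18, edgeR adjusted p = 0.717). Csf3r, the receptor gene for granulocyte colony-stimulating factor, lay the other way at 151 and 118 CPM in libraries labelled Ppm1bCKO, against 178 and 191 CPM in Ppm1bfl/fl libraries (-0.46 ± 0.18, edgeR adjusted p = 0.717). Tyrobp, a signalling adaptor gene, and Cd33, a myeloid surface lectin gene, had log2 fold changes of 0.40 ± 0.19 and -0.46 ± 0.23. Mpo, a primary granule gene, stood at 3759 and 3248 CPM in libraries labelled Ppm1bCKO, against 3976 and 3496 CPM in Ppm1bfl/fl libraries.

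Other granulocyte and monocyte regulators were more often negative, with 10 of 14, 0 passing, and a median log2 fold change of -0.17. Maf, a factor of macrophages, stood at 13.2 and 14.0 CPM in libraries labelled Ppm1bCKO, against 20.2 and 19.0 CPM in Ppm1bfl/fl libraries (-0.53 ± 0.20, edgeR adjusted p = 0.717). Egr1, an immediate-early gene that favours macrophages, had a log2 change of -0.36 ± 0.21, and the retinoic acid receptor gene Rara one of -0.23 ± 0.17. Irf8, which opposes granulocyte fate in favour of monocytes, stood at 439 and 399 CPM in libraries labelled Ppm1bCKO, against 390 and 372 CPM in Ppm1bfl/fl libraries (0.14 ± 0.17). Macrophage markers were likewise lower in both libraries labelled Ppm1bCKO. The 12 markers all lay on the negative side, and their median log2 fold change was -0.62. They summed to 531 and 658 CPM in libraries labelled Ppm1bCKO, against 899 and 922 CPM in Ppm1bfl/fl libraries. Of the 12, edgeR called 0 (background 0.372%) and DESeq2 called 4 (background 1.20%). In edgeR 7 had an unadjusted p under 0.05 (background 6.44%). The part of macrophage transcripts in the level of Maf was not tested.

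The corepressors through which Gfi1 and Gfi1b silence genes did not pass either. Of 9 tested, 0 passed and the median log2 fold change was -0.07. Kdm1a, the histone demethylase gene LSD1 that both repressors recruit, stood at 83.4 and 80.9 CPM in libraries labelled Ppm1bCKO, against 85.4 and 84.3 CPM in Ppm1bfl/fl libraries, a difference of -0.05 ± 0.16. The histone deacetylase genes Hdac2 and Hdac1 had log2 fold changes of 0.34 ± 0.18 and 0.21 ± 0.16, and the CoREST genes Rcor3 and Rcor1 of -0.34 ± 0.22 and -0.22 ± 0.17.

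Ratios of opposing factors were then taken within each library, which needs no scaling between libraries. Ratios are of counts per kilobase of exonic length, and 7 were compared by a two-sided exact permutation test, which with 2 against 2 libraries cannot go below p = 0.333. The ratio of Spi1 to Gata1 was 1.42 and 1.37 in libraries labelled Ppm1bCKO, against 1.79 and 1.22 in Ppm1bfl/fl libraries. The Ppm1bCKO libraries lay between the Ppm1bfl/fl libraries, and the difference in mean log2 ratio was -0.08 (exact permutation p = 1, 7 ratios, adjusted p = 1). It turned to 0.20 without the first Ppm1bfl/fl library. The ratio of Gfi1 to Gfi1b was 0.202 and 0.216 in libraries labelled Ppm1bCKO, against 0.201 and 0.150 in Ppm1bfl/fl libraries. The groups stood apart by a narrow margin, with 0.202 and 0.201 as nearest values, and the mean log2 ratio differed by 0.26 (exact permutation p = 0.333, adjusted p = 0.778). Without the second Ppm1bfl/fl library that difference was 0.05.

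**Figure D5:**
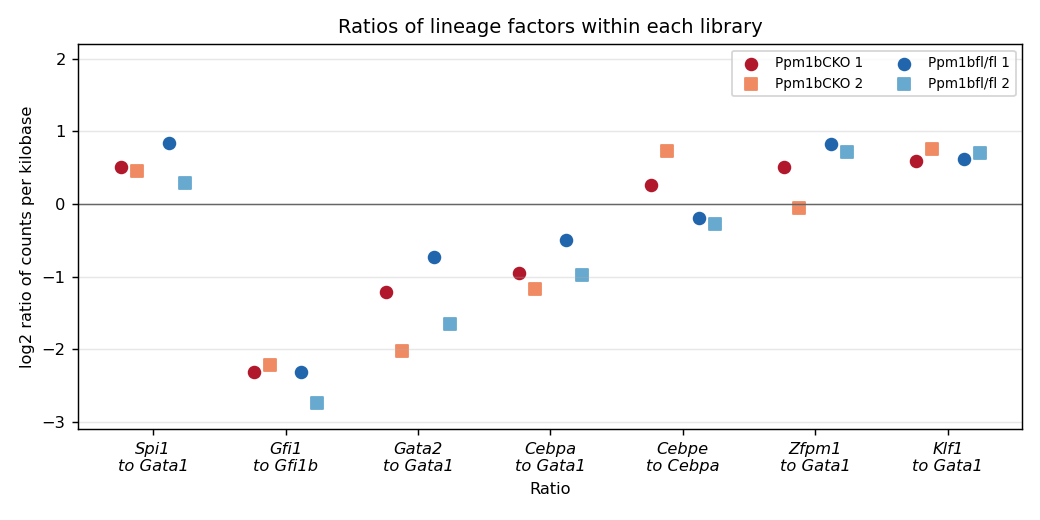
Each point is the log2 ratio of the counts per kilobase of 2 genes (vertical axis) in 1 library, for 7 pairs of genes (horizontal axis), with Ppm1bCKO libraries left of Ppm1bfl/fl libraries. The ratio of Klf1 to Gata1 spans 0.17 over the 4 libraries and that of Gata2 to Gata1 spans 1.30, and the ratios of Cebpe to Cebpa and Zfpm1 to Gata1 show separate groups.

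The ratio of Gata2 to Gata1, which falls as erythroid cells mature, had the widest span of the 7. It was 0.431 and 0.245 in libraries labelled Ppm1bCKO, against 0.605 and 0.317 in Ppm1bfl/fl libraries, and the groups interleaved (difference of -0.43 in mean log2 ratio, exact permutation p = 0.667, adjusted p = 0.933). The difference turned to 0.04 without the first Ppm1bfl/fl library and was -0.90 without the second. Klf1 to Gata1 was the steadiest, at 1.50 and 1.69 in libraries labelled Ppm1bCKO, against 1.54 and 1.63 in Ppm1bfl/fl libraries. Its difference was 0.01 (exact permutation p = 1, adjusted p = 1). Cebpa to Gata1 was 0.519 and 0.442 in libraries labelled Ppm1bCKO, against 0.710 and 0.506 in Ppm1bfl/fl libraries (difference -0.32, exact permutation p = 0.667, adjusted p = 0.933). That difference was -0.08 without the first Ppm1bfl/fl library and -0.57 without the second.

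For a further pair of ratios the groups stood apart more widely. Cebpe to Cebpa was 1.20 and 1.66 in libraries labelled Ppm1bCKO, against 0.870 and 0.824 in Ppm1bfl/fl libraries, so that Cebpe exceeded Cebpa per length in both Ppm1bCKO libraries and in neither of the others. The difference in mean log2 ratio was 0.73 (exact permutation p = 0.333, adjusted p = 0.778), and 0.50 to 0.97 over the fits that left out 1 library. Zfpm1 to Gata1 was 1.43 and 0.960 in libraries labelled Ppm1bCKO, against 1.76 and 1.63 in Ppm1bfl/fl libraries. The difference was -0.54 (exact permutation p = 0.333, adjusted p = 0.778), and -0.82 to -0.25 over the same fits. In this exact permutation test they reach the smallest p the design allows, 0.333, which does not pass a threshold of 0.05.

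Profiles over the 4 libraries were compared by the root mean square difference of log2 CPM after each gene's mean was subtracted, among 170 listed genes with an average log2 CPM of at least 1. With 4 libraries many genes lie close, so the nearest genes are a description. Nearest to Gata1 were Bcl2l1, a survival gene of erythroid cells, at 0.02, then the haem enzyme gene Urod at 0.04 and the carbonic anhydrase gene Car2 at 0.06. Nearest to Klf1 were Bcl2l1 at 0.07, Rhd at 0.07 and Car2 at 0.08. All of these came from the list of erythroid targets. For Zfpm1 they were Ermap (0.10), Klf3 (0.10) and Rara (0.12), and for Gfi1b Ldb1 (0.10), Cd68 (0.11) and Fcnb (0.11). Between members the closest pair was Gata1 and Klf1, at 0.07, followed by Spi1 and Gfi1, at 0.09.

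Nearest to Gata2 were Flt3 at 0.06, Cd8a at 0.07 and Meis1 at 0.08, of which Flt3 and Meis1 belong to the stem and progenitor list. Nearest to Runx1 were Stat3, Ms4a2 and Mpo, at 0.03, 0.03 and 0.04. The granule protease genes were close to the myeloid factors, with Prtn3 nearest to Spi1 (0.04) and Ctsg nearest to Gfi1 (0.03). Spi1 was followed by Cd48 (0.05) and S100a8 (0.06), and Gfi1 by Lmo2 (0.04) and Elane (0.04). For Cebpa the nearest were Ldb1 (0.05), Nfe2 (0.05) and Cd3e (0.06). For Cebpe they were Irf4 (0.07), Cox6a2 (0.09) and Vpreb1 (0.10), and Irf4 stood at 102 and 143 CPM in libraries labelled Ppm1bCKO, against 83.6 and 76.3 CPM in Ppm1bfl/fl libraries.

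Cells of other lineages differed in their marker sums as well, and their part in the levels of factors they share, such as Spi1 and Runx1, was not tested. The 8 B cell markers summed to 283 and 615 CPM in libraries labelled Ppm1bCKO, against 187 and 190 CPM in Ppm1bfl/fl libraries. Plasma cell markers (7) summed to 761 and 1015 CPM in libraries labelled Ppm1bCKO, against 2789 and 1675 CPM in Ppm1bfl/fl libraries. Neither sum overlapped between the genotypes, B cell markers being higher and plasma cell markers lower in libraries labelled Ppm1bCKO. Most of the plasma cell sum was 1 gene, Jchain. It stood at 463 and 624 CPM in libraries labelled Ppm1bCKO, against 2448 and 1377 CPM in Ppm1bfl/fl libraries. Of the 7 plasma cell markers 6 had a negative log2 fold change, Xbp1 at -0.01 ± 0.18, and Irf4 lay the other way at 0.62 ± 0.20. For 6 plasmacytoid dendritic cell markers the sums were 223 and 272 CPM in libraries labelled Ppm1bCKO, against 167 and 139 CPM in Ppm1bfl/fl libraries. For 9 T and NK cell markers they were 183 and 215 CPM in libraries labelled Ppm1bCKO, against 181 and 155 CPM in Ppm1bfl/fl libraries. None of these lists held a gene called by edgeR (background 0.372%), where 18 of their 30 genes had an unadjusted p under 0.05 (background 6.44%). Of the 30, DESeq2 called 9 (background 1.20%) and limma-voom 0 (background 0.311%).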

How the data were processed

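Gene expression was measured by bulk RNA-seq (TRIzol RNA, TruSeq libraries, per the labels' protocols). The authors deposited raw whole-number counts per gene with exonic lengths. The submitters' processing notes name featureCounts 2.0.1, HISAT2 2.2.0, Trim Galore 0.6.7 and the build mm10; annotation release, strand setting and handling of multi-mapping reads are not given in the sources used here. Runx1, Cebpa and Gfi1 share exonic bases with antisense genes of at most 37 counts per library. Of 55399 identifiers, 55139 matched a symbol. The main test was edgeR 4.0.16 under R 4.3.3 (TMM, filterByExpr by group, robust quasi-likelihood), with Benjamini-Hochberg adjustment over 16393 genes and a threshold of 0.05. CPM values are TMM-normalised; the standard error is the log2 fold change over the square root of F. A count of 0 allows 3 counts, or 0.0998 to 0.134 CPM, for counting error only. The fit was tested on simulated data. Alternatives were DESeq2 1.42.0, its size factors, limma-voom (limma 3.58.1), 2 filters, a replicate block and each library left out. Named were all 10 members, up to 4 genes per list by p and the 3 nearest profiles per member; some of these are not reported here, and others were chosen after their values were seen. Members, lists and ratios were chosen with earlier results of these data known, and the promoter motifs after the values were seen.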

Additional observations from a re-analysis of the deposited data

How the results depend on the processing

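All 60 member values under the 6 settings that keep every library (DESeq2 size factors, DESeq2, limma-voom, no low-count filter, a minimum of 1 CPM in 2 libraries, the replicate block) kept their direction and stayed unpassed, moving by at most 0.04 on the log2 scale. The number of all genes called, 61, was 311 without a filter, 188 by DESeq2 and 207 with the replicate number as a block, and 94 to 3336 with 1 library left out. The block called 0 members. The numbers are not said to pair the libraries, and differences between the numbered libraries correlated at 0.06 over genes between the genotypes.

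With 1 library left out, the lone library is assumed to vary like the other genotype. Then 0 to 1 members (Cebpe) and 0 to 14 genes of the target and partner lists were called. Both upper values came from the fit without Ppm1bCKO replicate 1. The same fit gave the upper end of the range for all genes called, so these calls are not particular to the members or lists. Log2 fold changes ran from -0.064 to 0.46 for Gata1, -0.14 to 0.52 for Klf1, -0.56 to -0.15 for Zfpm1, -0.40 to -0.036 for Gfi1b, -0.46 to -0.028 for Gata2, -0.29 to -0.050 for Runx1, -0.088 to 0.28 for Spi1, -0.24 to -0.044 for Cebpa, -0.020 to 0.11 for Gfi1 and 0.26 to 0.92 for Cebpe. Differences in log2 ratio ran from -0.36 to 0.20 for Spi1 to Gata1, 0.051 to 0.47 for Gfi1 to Gfi1b, -0.90 to 0.038 for Gata2 to Gata1, -0.57 to -0.079 for Cebpa to Gata1, 0.50 to 0.97 for Cebpe to Cebpa, -0.82 to -0.25 for Zfpm1 to Gata1 and -0.077 to 0.092 for Klf1 to Gata1. With replicates paired, ratios differed by the same amounts, with a smallest possible exact p of 0.5. Medians of lists ran from -0.13 to -0.036 for erythroid and megakaryocytic regulators, -0.24 to -0.037 for granulocyte and monocyte regulators, -0.22 to -0.041 for corepressors, -0.20 to 0.042 for Runx partners, -0.23 to 0.45 for erythroid targets, -0.81 to 0.56 for megakaryocyte targets, -0.094 to 0.079 for Spi1 and Cebpa targets and -0.063 to 0.065 for secondary granule targets. The cause was not tested. The members had 656 to 10533 counts per library, and no depth alternative was run.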
